A study of Mus musculus with 6 samples.

Results

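The 10 genes described here are Per1, Per2, Per3, Cry1, Cry2, Arntl (also called Bmal1), Clock, Nr1d1, Nr1d2 and Dbp. They were chosen by name as core genes of the circadian clock, with earlier results of these data known, and all 10 were found among the 43432 genes listed. To investigate how they behave upon neuronal depolarization, poly(A) RNA-seq libraries of mouse cortical neurons were compared before KCl (0 h) and after 2 h or 6 h in 55 mM KCl, with 2 libraries per time point and 6 in all. The neurons came from wild-type C57BL/6 embryos at E16.5, male and female pooled, and were cultured for 7 days. Every group, 0 h included, had been silenced overnight with 1 µM tetrodotoxin (TTX), which blocks sodium channels, and 100 µM DL-AP5, which blocks NMDA receptors. KCl was then added, which depolarizes the membrane directly. The medium of all cultures had been renewed on the day of silencing, and no culture was kept without KCl until 2 h or 6 h, so for each clock gene the time in KCl and the time elapsed cannot be told apart.

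The circadian clock is a feedback loop of transcription. The proteins of Clock and Arntl pair and bind E-box sequences to switch on the Per and Cry genes, whose proteins return to the nucleus and repress that pair. The nuclear receptors encoded by Nr1d1 and Nr1d2 repress Arntl in a second loop, and Dbp, an output of the loop, activates genes that carry a D-box. Per1 and Per2 are also known to respond directly to signals that act through calcium and cAMP, which is how light resets the clock in the suprachiasmatic nucleus.

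The sequences below show where such elements lie in front of the members whose promoters held them, since these are among the letters through which the loop and its inputs are known to act. Windows of 250 bases before each start site were taken from RefSeq (build GRCm38.p6), which gave 13 windows for 9 of the 10 members and no entry for Per2. Both strands were searched for the E-box CACGTG, the D-box TTATGTAA or TTACGTAA, the full cAMP response element TGACGTCA, and its shorter form TGACG, which the full element contains. Capitals mark the matches in the following windows, each written 5′ to 3′ on the strand of its gene, where CGTCA is TGACG on the other strand.
Per1, first start site, chr11:69098699-69098948, plus strand: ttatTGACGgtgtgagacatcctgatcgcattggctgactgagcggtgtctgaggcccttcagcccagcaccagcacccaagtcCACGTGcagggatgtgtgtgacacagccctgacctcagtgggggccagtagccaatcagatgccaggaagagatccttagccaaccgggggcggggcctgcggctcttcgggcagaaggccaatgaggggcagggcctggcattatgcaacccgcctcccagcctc
Per1, second start site, chr11:69099902-69100151, plus strand: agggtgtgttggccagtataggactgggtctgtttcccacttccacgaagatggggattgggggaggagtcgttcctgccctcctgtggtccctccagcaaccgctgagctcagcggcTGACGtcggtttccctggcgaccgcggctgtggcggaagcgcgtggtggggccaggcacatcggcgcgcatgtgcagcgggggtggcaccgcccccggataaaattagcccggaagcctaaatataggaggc
Cry1, chr10:85185055-85185304, minus strand: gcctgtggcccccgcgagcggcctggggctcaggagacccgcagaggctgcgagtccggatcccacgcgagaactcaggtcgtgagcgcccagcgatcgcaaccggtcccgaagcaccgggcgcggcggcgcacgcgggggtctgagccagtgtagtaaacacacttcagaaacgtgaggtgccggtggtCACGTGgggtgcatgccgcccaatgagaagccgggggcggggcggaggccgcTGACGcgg
Cry2, chr2:92434070-92434319, minus strand: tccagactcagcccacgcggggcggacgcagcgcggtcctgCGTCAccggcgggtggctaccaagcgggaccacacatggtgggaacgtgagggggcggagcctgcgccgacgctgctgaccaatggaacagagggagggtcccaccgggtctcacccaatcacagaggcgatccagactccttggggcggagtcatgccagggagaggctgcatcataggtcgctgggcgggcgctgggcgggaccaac
Per3, chr4:151044666-151044915, minus strand: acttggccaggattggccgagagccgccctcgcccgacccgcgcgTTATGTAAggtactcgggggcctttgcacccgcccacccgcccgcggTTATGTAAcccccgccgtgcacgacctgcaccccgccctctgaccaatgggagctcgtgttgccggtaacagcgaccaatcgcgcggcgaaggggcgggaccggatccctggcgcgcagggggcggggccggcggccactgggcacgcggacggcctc

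The E-box was present in 2 of the 13 windows, at 166 bases before the first start of Per1 and 60 bases before the start of Cry1. Of all 32851 promoter windows, 6.02% held it. The shorter element TGACG lay in 4 windows, at 246 bases before the first and 132 bases before the second start of Per1, 8 bases before that of Cry1, and, on the other strand, 209 bases before that of Cry2. It was found in 17.8% of all windows. The full element TGACGTCA, present in 1.55% of all windows, was in 0 of the 13. The D-box was found only in the Per3 window, where it occurred at 205 and 158 bases before the start, and in 0.931% of all windows. The windows of Arntl, Clock, Nr1d1, Nr1d2 and Dbp held none of these letters. Other forms of the elements, the sites that the nuclear receptors bind, and bases outside the windows were not searched. A match is a description of the sequence and not evidence of binding.

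The libraries held 25959298 to 28573067 expected counts each. Fos, the immediate early gene used as a check of depolarization, was at 38.2 and 34.6 normalized counts at 0 h, 6939.3 and 8222.0 at 2 h, then 3915.3 and 3806.4 at 6 h. In sum, neuronal markers (Tubb3, Map2, Rbfox3, Snap25, Syt1, Dcx, Slc17a7 and Gad1) had 4030 to 4140 TPM (transcript abundance scaled to length and library) before KCl, 3310 to 3610 TPM after 2 h and 3620 to 3770 TPM after 6 h. Astrocyte markers were present at 510 to 551, 505 and 413 to 424 TPM in sum, markers of the oligodendrocyte lineage at 123 to 146, 94.9 to 112 and 121 to 131 TPM, and markers of dividing cells at 147 to 152, 138 to 159 and 105 to 121 TPM. Against 0 h, 2 of 8 neuronal markers had changed at 6 h and 0 at 2 h, 1 of 6 oligodendrocyte lineage markers at each time, and 0 astrocyte or dividing cell markers at either. Of the lists at 2.84 TPM or less in sum, 1 of 4 endothelial and mural markers had changed at 2 h and 2 at 6 h, and 0 and 1 of 5 microglial markers, where 9.55% of all genes changed at 2 h and 19.3% at 6 h. Their part in the clock gene values was not tested, and in such bulk samples fewer cells of a type and less RNA per cell cannot be told apart. Of 5 markers of the suprachiasmatic nucleus, Vip was at 2.57 to 3.42 TPM, while Avp was listed at 0 TPM in all 6 libraries and Six6, Lhx1 and Nms at 0.28 TPM or less. The 2 libraries at 2 h differed more from each other than those of the other groups (SD of the log2 difference over 12290 genes, 0.429, against 0.246 at 0 h and 0.214 at 6 h), and this difference followed gene GC content (Spearman's rho across genes −0.744). Clock and Nr1d2, the members with the lowest GC content, also had the widest ratios between their 2 h libraries (2.11 and 1.93). The part of GC content in their values was not tested.

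Levels were compared between members as TPM, which is scaled to transcript length. At 0 h, Cry2 was the most abundant member at a mean of 30.97 TPM, followed by Arntl at 19.09 and Cry1 at 13.93. Per1 at 11.11 and Clock at 10.79 overlapped, and Nr1d2 (8.68) and Nr1d1 (6.37) came next. Per2 at 3.83 and Dbp at 3.76 TPM overlapped as well, and Per3 was lowest at 1.46.

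After 2 h the order was led by Per1 at 48.32 TPM, with its libraries at 40.64 and 56.00, above Cry2 at 30.49 and Cry1 at 23.24. Arntl (12.72), Clock (12.14) and Nr1d2 (9.815) each overlapped the next in the order, the last of them Nr1d1 (8.21), and Per2 (5.26) stood above Per3 (1.635) and Dbp (1.435), which overlapped. After 6 h Cry2 at 57.05 and Per1 at 56.26 TPM overlapped at the top, and Cry1 followed at 41.97, Arntl at 29.31 and Clock at 23.73. Per2 had passed both nuclear receptors, at 15.96 TPM against 13.46 for Nr1d2 and 10.44 for Nr1d1. Dbp at 1.15 and Per3 at 0.87 TPM were lowest. These orders are described by the ranges of 2 libraries and were not tested.

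**Figure D1:**
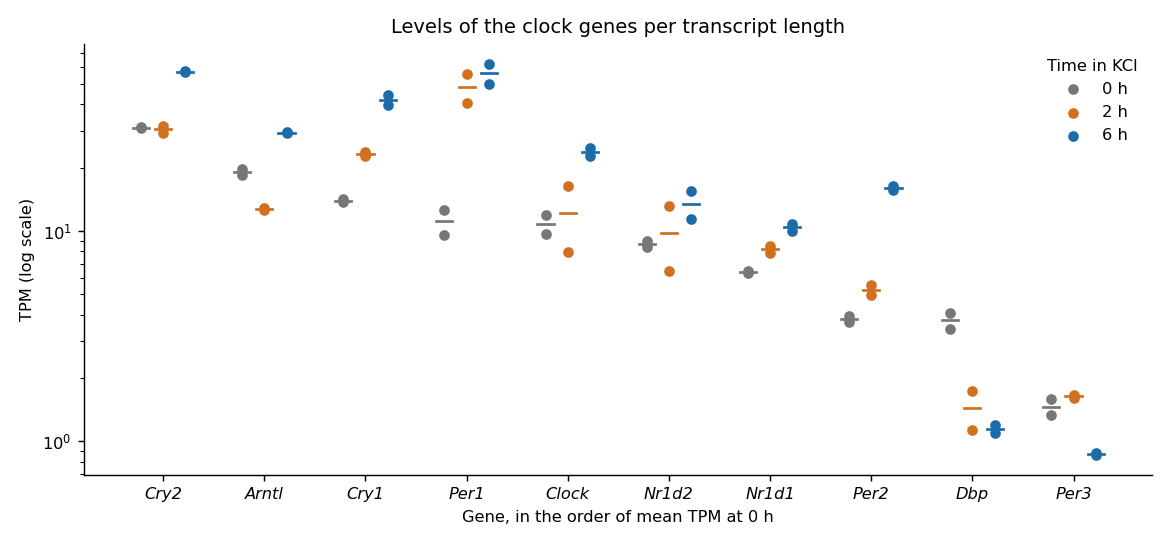
TPM on a log axis for each of the 10 clock genes, with 1 point per library, a bar at the mean of 2 libraries, and a colour for each time in KCl. Per1 moved from 11.11 TPM at 0 h to 48.32 at 2 h, Per2 from 3.83 at 0 h to 15.96 at 6 h, and Dbp from 3.76 to 1.15.

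Changes were tested on the counts with DESeq2 in one fit over the 6 libraries. A gene was taken as up- or down-regulated at an adjusted p of 0.05 or less together with a change of more than 2-fold, and log2 fold changes are given with their standard error. Where the 2 groups of a gene are said not to overlap, every library of one group lay above every library of the other.

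Compared to 0 h, 2 of the 10 clock genes had changed at 2 h: Per1 was up-regulated and Dbp down-regulated. Of the 16840 genes tested, 9.55% changed in this comparison, 3.62% up and 5.94% down. At 6 h, 6 of 10 had changed against 0 h: Per1, Per2, Cry1, Cry2 and Clock were up-regulated and Dbp down-regulated. The background was 19.3% of genes, 9.1% up and 10.2% down. Between 2 h and 6 h, Per2 and Arntl were up-regulated and no member was down-regulated, against 18.1% of genes changed, 10.1% up and 8.02% down. Per3, Nr1d1 and Nr1d2 were neither up- nor down-regulated in any of the 3 comparisons.

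The 10 members had a median log2 fold change of 0.25 (2 h against 0 h), 0.93 (6 h against 0 h) and 0.73 (6 h against 2 h), where the medians over all genes tested were 0.02, 0.00 and −0.01. At an adjusted p of 0.05 or less, whatever the fold, 5, 8 and 8 members passed in the 3 comparisons, against 26.5%, 45.3% and 45.3% of genes. Groups did not overlap in 8, 10 and 9 members, a level also seen in 62.7%, 80.5% and 74.8% of all genes. With library totals in place of size factors, the median over all genes averaging 10 counts or more moved to −0.16 (2 h against 0 h) and −0.25 (6 h against 0 h), and the members' median to 0.08 and 0.68. Among all changed genes, up-regulated ones then made up 27.3% instead of 37.8% in the 2 h comparison, and 28.7% instead of 47.2% in the 6 h comparison.

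**Figure D2:**
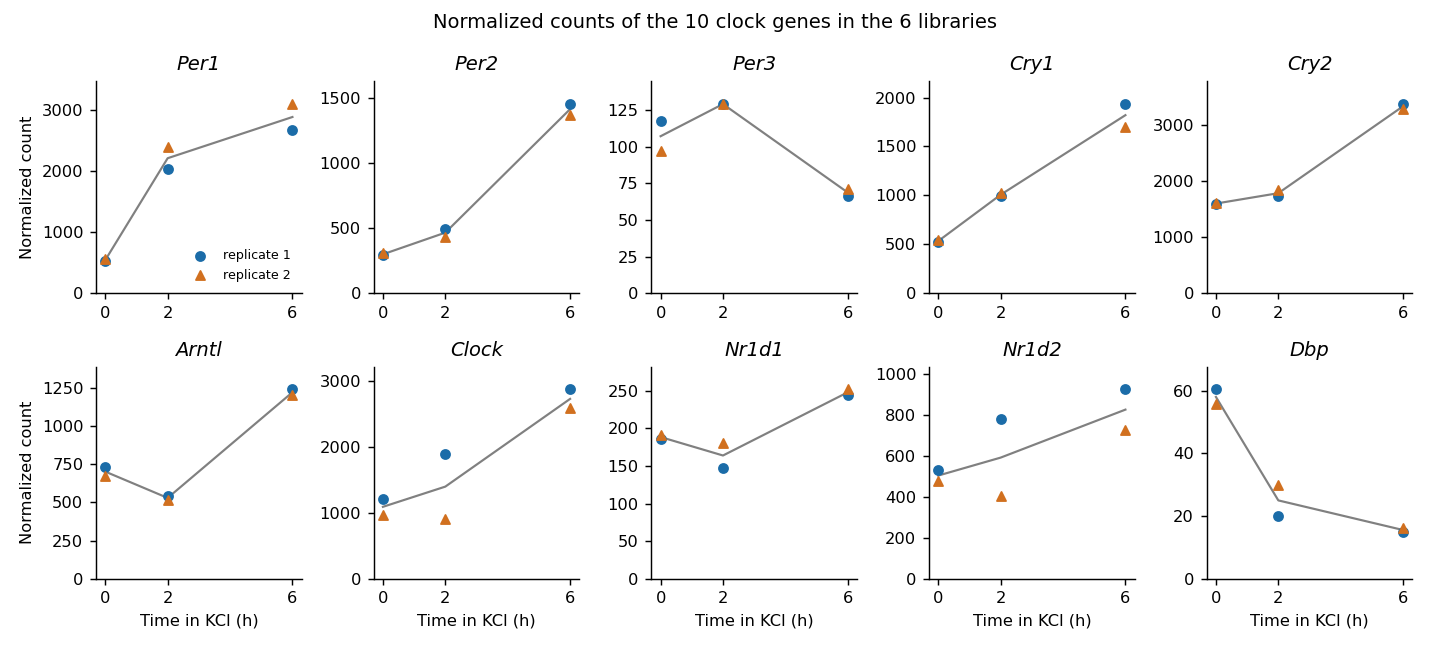
Normalized counts (y axis, from 0, on a scale of its own in each panel) of the 10 clock genes against time in KCl in hours. Each point is a library, circles for replicate 1 and triangles for replicate 2, and the grey line joins the means. Per1 was already high at 2 h, Per2 rose mainly between 2 h and 6 h, Arntl was lowest at 2 h, and the 2 h libraries of Clock and Nr1d2 lay far apart.

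The Period genes encode the repressors that time the loop, and each showed a course of its own. Per1 (ENSMUSG00000020893, chr11:69095217-69109960, plus strand of GRCm38) was at 522.0 and 558.7 normalized counts at 0 h, 2025.2 and 2387.1 at 2 h, then 2663.3 and 3096.5 at 6 h. Both 2 h libraries lay well above both 0 h libraries, and the groups did not overlap in any comparison. Per1 was 4.08-fold higher at 2 h (log2 fold change 2.03 ± 0.15 SE, adjusted p = 1.35e-37) and 5.33-fold higher at 6 h (2.41 ± 0.15, adjusted p = 1.19e-53) than at 0 h. The further step from 2 h to 6 h was 0.38 ± 0.15 (adjusted p = 0.0242), below the fold required, and in TPM the libraries of these 2 groups overlapped. The windows printed above for Per1 are those with an E-box and with TGACG, and both of their start sites lie within the interval given for the gene.

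Per2 (ENSMUSG00000055866, chr1:91415982-91459324, minus strand) was at 291.2 and 306.8 normalized counts at 0 h, 496.3 and 435.2 at 2 h, then 1457.4 and 1374.6 at 6 h. The 3 groups were separate, with the larger step after 2 h. Its change was 0.64 ± 0.15 at 2 h (adjusted p = 2.59e-04), which is 1.56-fold and did not pass the fold required, 2.24 ± 0.15 at 6 h (4.74-fold, adjusted p = 2.33e-49), and 1.60 ± 0.15 between 2 h and 6 h (3.04-fold, adjusted p = 3.14e-26). Per2 was the 1 member that was up-regulated at 6 h against both 0 h and 2 h, as were 612 genes or 3.54% of those tested. No member was up-regulated at 2 h and down-regulated from 2 h to 6 h, a course seen in 0.48% of genes.

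Per3 (ENSMUSG00000028957, chr4:151003652-151044665, minus strand), whose product takes a lesser part in timing than those of Per1 and Per2, did not follow them. It was at 117.2 and 96.9 normalized counts at 0 h, 128.8 and 129.2 at 2 h, then 66.3 and 71.0 at 6 h. The 6 h libraries were the lowest and did not overlap the others. Against 0 h Per3 did not pass the test, with 0.27 ± 0.27 at 2 h (adjusted p = 0.546) and −0.64 ± 0.29 at 6 h (adjusted p = 0.0572). Between 2 h and 6 h it was 1.88-fold lower (−0.91 ± 0.29, adjusted p = 0.00477), short of the fold required. The D-box, which Dbp and its relatives bind, was found in the window of this gene alone.

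The cryptochromes are the partners of the Period proteins in repression, and both were up-regulated at 6 h. Cry1 (ENSMUSG00000020038, chr10:85131700-85185064, minus strand) was at 527.3 and 538.5 normalized counts at 0 h, 989.6 and 1023.5 at 2 h, then 1936.8 and 1703.7 at 6 h. The 3 groups formed steps that did not overlap. The change was 0.92 ± 0.14 at 2 h (1.89-fold, adjusted p = 3.06e-10), just short of the fold required, and 1.77 ± 0.13 at 6 h (3.42-fold, adjusted p = 3.51e-38). Between 2 h and 6 h it was 0.85 ± 0.13 (adjusted p = 7.76e-10).

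Cry2 (ENSMUSG00000068742, chr2:92403646-92434043, minus strand) was at 1597.0 and 1601.2 normalized counts at 0 h, 1727.6 and 1841.2 at 2 h, then 3380.3 and 3292.3 at 6 h. Only the 6 h libraries stood clearly apart. The change was 0.16 ± 0.11 at 2 h (adjusted p = 0.305; 95% interval −0.05 to 0.37), 1.06 ± 0.10 at 6 h (2.09-fold, adjusted p = 1.58e-22) and 0.90 ± 0.10 between 2 h and 6 h (adjusted p = 2.01e-16), the last 1.01 and called after GC correction. The 6 h call sits at the edge of the fold required: with library totals as size factors the change was 0.81, and by limma on log2(TPM + 0.5) it was 0.87, neither of them called.

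Arntl and Clock encode the activating pair, and both were highest at 6 h. Arntl (ENSMUSG00000055116, chr7:113207465-113314126, plus strand) was at 727.9 and 673.3 normalized counts at 0 h, 539.2 and 517.9 at 2 h, then 1238.0 and 1200.3 at 6 h. The 2 h libraries were the lowest and the 6 h libraries the highest, with no overlap between any groups. Arntl differed by −0.41 ± 0.13 at 2 h (adjusted p = 0.0117) and 0.80 ± 0.13 at 6 h (1.74-fold, adjusted p = 5.27e-09), neither past the fold required. It was up-regulated between 2 h and 6 h (1.21 ± 0.13, 2.31-fold, adjusted p = 2.23e-18).

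Clock (ENSMUSG00000029238, chr5:76209868-76304792, minus strand, GC content 41.5%) was at 1212.6 and 975.0 normalized counts at 0 h, 1900.3 and 901.5 at 2 h, then 2878.4 and 2590.0 at 6 h. The 2 h libraries lay on either side of both 0 h libraries, while both 6 h libraries were above the rest. Clock was up-regulated at 6 h (1.32 ± 0.31, 2.50-fold, adjusted p = 7.04e-05), with 0.36 ± 0.31 at 2 h (adjusted p = 0.456) and 0.96 ± 0.31 between 2 h and 6 h (adjusted p = 0.00491). Without replicate 1 of 2 h the change at 2 h was −0.29 and that between 2 h and 6 h was 1.61 and was called, so for Clock the 2 h level rests on which library is used. After GC correction the change at 2 h was 0.50 (adjusted p = 0.00692), short of the fold required. The 6 h call was lost by limma on unfiltered TPM (1.11, adjusted p = 0.0667).

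Nr1d1 and Nr1d2 encode REV-ERBα and REV-ERBβ, the repressors of Arntl, and neither was up- or down-regulated. Nr1d2 (ENSMUSG00000021775, chr14:18204054-18239127, minus strand, GC content 44.0%) was at 530.0 and 477.8 normalized counts at 0 h, 779.9 and 403.2 at 2 h, then 924.5 and 727.1 at 6 h. The 2 h libraries spanned those of 0 h and reached into those of 6 h. Its change was 0.23 ± 0.30 at 2 h (adjusted p = 0.662), 0.71 ± 0.30 at 6 h (adjusted p = 0.0406) and 0.48 ± 0.30 between 2 h and 6 h (adjusted p = 0.189). As with Clock, leaving out replicate 1 of 2 h gave −0.33 at 2 h and 1.04 between 2 h and 6 h, the latter called.

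Nr1d1 (ENSMUSG00000020889, chr11:98767932-98775333, minus strand) was at 185.5 and 191.3 normalized counts at 0 h, 147.8 and 179.9 at 2 h, then 244.0 and 251.7 at 6 h. The 2 h libraries were the lowest and the 6 h libraries the highest. The change was −0.20 ± 0.22 at 2 h (adjusted p = 0.576), 0.40 ± 0.21 at 6 h (adjusted p = 0.12) and 0.60 ± 0.22 between 2 h and 6 h (adjusted p = 0.0151). In TPM the order of 0 h and 2 h was turned, with 6.43 and 6.31 TPM at 0 h, 7.89 and 8.53 at 2 h, then 10.03 and 10.85 at 6 h. The direction at 2 h therefore depends on whether transcript length enters, and with effective lengths as offsets it was 0.54 (adjusted p = 0.0554). At 6 h against 0 h these offsets gave 0.87 (adjusted p = 2.11e-04) and limma on log2(TPM + 0.5) gave 0.67 (adjusted p = 0.0054), both short of the fold required.

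The effective length of a gene is the abundance-weighted length of its transcripts as RSEM estimates it, and it moves with the mix of transcripts. For Nr1d1 it was 2034 and 2155 bases at 0 h, 1157 and 1327 at 2 h, then 1497 and 1455 at 6 h. All 4 libraries in KCl lay below both at 0 h. The log2 ratio was −0.76 at 2 h (limma, adjusted p = 0.151) and −0.50 at 6 h (adjusted p = 0.119), which did not pass. Of the 9 members with enough counts for this test, 0 passed in any comparison, against 0.0356%, 0.525% and 0.116% of the 11233 genes tested. At an unadjusted p below 0.05, 1 member, Nr1d1, passed in each, where 8.08%, 14.0% and 12.2% of all genes did. Nr1d1 shares 263 of its 3077 exonic bases (8.55%) with Thra on the opposite strand, which had a mean of 25930.1 expected counts, and its counts were not whole numbers (by more than 0.005) in 5 of 6 libraries. The kit used marks strand, but whether RSEM was run with strand is not given in the sources used here, and how the reads there were divided between Nr1d1 and Thra was not tested.

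**Figure D3:**
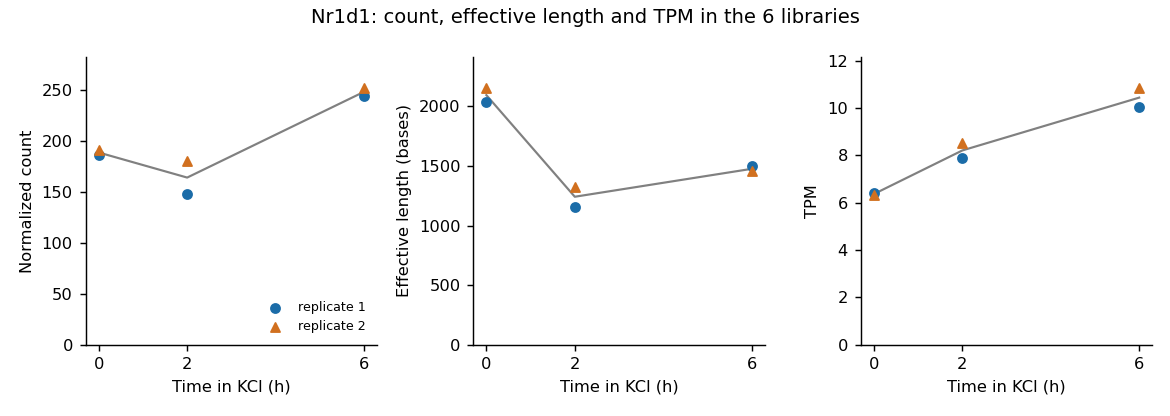
Nr1d1 in the 6 libraries against time in KCl in hours, as normalized count, effective length in bases and TPM, with circles for replicate 1, triangles for replicate 2 and a grey line through the means. The count was lowest at 2 h, the effective length was also lowest at 2 h, and the TPM at 2 h lay above that at 0 h.

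Dbp (ENSMUSG00000059824, chr7:45705088-45710203, plus strand) encodes a D-box binding activator and was the only member to be down-regulated. It was at 60.4 and 55.6 normalized counts at 0 h, 20.0 and 30.0 at 2 h, then 15.0 and 16.1 at 6 h. Both 0 h libraries lay above all libraries in KCl. Dbp was 2.32-fold lower at 2 h (−1.22 ± 0.48, adjusted p = 0.0425) and 3.73-fold lower at 6 h (−1.90 ± 0.51, adjusted p = 6.72e-04) than at 0 h, and differed by −0.68 ± 0.53 between 2 h and 6 h (adjusted p = 0.309). The 2 h call was lost on leaving out any 1 of the 6 libraries, with changes of −1.56 to −0.96. It was also lost with effective lengths as offsets (−1.23, adjusted p = 0.0656) and with replicate as a block (−1.23, adjusted p = 0.105). The same held with GC correction and the block together (−1.25, adjusted p = 0.0953). On leaving out 1 library, the 6 h call was lost only without replicate 1 of 0 h (−1.84, adjusted p = 0.0679).

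Dbp shares 539 of its 2993 exonic bases (18.0%) with Sphk2 on the opposite strand, and its counts were not whole numbers, by the same tolerance, in any of the 6 libraries. Sphk2, which encodes a sphingosine kinase, was at 267.2 and 272.2 normalized counts at 0 h, 105.9 and 121.0 at 2 h, then 193.7 and 243.1 at 6 h. It was down-regulated at 2 h (−1.25 ± 0.23, adjusted p = 1.10e-06) but not at 6 h (−0.30 ± 0.22, adjusted p = 0.273), where Dbp was lowest. As for Nr1d1, the kit marks strand and the part of shared reads in the Dbp values was not tested.

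**Figure D4:**
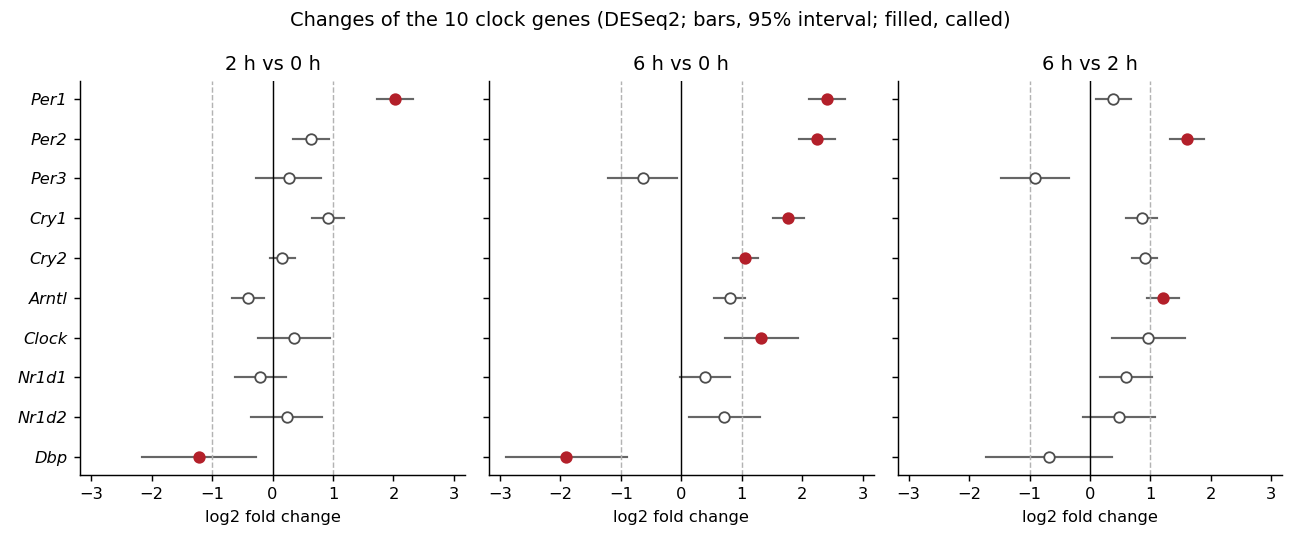
DESeq2 log2 fold changes of the 10 clock genes in the 3 comparisons, with bars for the 95% interval, filled points for called genes, and dashed lines at a 2-fold change either way. At 6 h against 0 h, 5 members lie to the right as filled points and Dbp to the left at −1.90.

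The rest of the clock pathway was followed in a list of 20 partner genes, of which 19 had an adjusted p. Of the list, 4 changed at 2 h (2 up, 2 down), 3 at 6 h (2 up, 1 down) and 4 between 2 h and 6 h (all up), against the 9.55%, 19.3% and 18.1% of all genes given above. Over the 3 comparisons 8 partners changed and 12 did not, and the share of all genes changed in any of the 3 was not counted. The list's median log2 fold change was −0.06, 0.47 and 0.28.

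The largest changes were in transcription factors that oppose the activators. Nfil3, the repressor that competes with Dbp for the D-box, was at 719.0 and 787.1 normalized counts at 0 h, 7672.3 and 8744.1 at 2 h, then 6297.2 and 5410.1 at 6 h. It was 10.9-fold higher at 2 h (3.45 ± 0.14, adjusted p = 6.23e-127) and 7.77-fold higher at 6 h (2.96 ± 0.14, adjusted p = 4.37e-93). Nfil3 was up-regulated at both times at which Dbp was down-regulated.

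Bhlhe40 and Bhlhe41 (also called Dec1 and Dec2), which repress at E-boxes, were down-regulated at 2 h. Bhlhe41 was at 79.0 and 70.8 normalized counts at 0 h, 4.0 and 11.4 at 2 h, then 55.6 and 47.3 at 6 h, a change of −3.29 ± 0.56 at 2 h (9.80-fold lower, adjusted p = 5.91e-08) and of 2.75 ± 0.56 between 2 h and 6 h (adjusted p = 6.30e-06). Leaving out 1 of the 2 h libraries moved these to −2.73 and 2.19 (without replicate 1) or −4.25 and 3.70 (without replicate 2). The change at 2 h was −2.60 with effective lengths as offsets and −1.14 by limma on log2(TPM + 0.5) (adjusted p = 0.0255). By that limma fit the later change was 0.71 and was not called (adjusted p = 0.0699). Bhlhe40 was at 794.5 and 882.3 normalized counts at 0 h, 375.5 and 317.4 at 2 h, then 504.0 and 491.5 at 6 h, a change of −1.27 ± 0.16 at 2 h (adjusted p = 2.64e-13). For both genes the 2 h libraries were the lowest and did not overlap either other group, and at 6 h against 0 h the change was −0.54 for Bhlhe41 (adjusted p = 0.329) and −0.75 for Bhlhe40 (adjusted p = 1.54e-05), the latter short of the fold required.

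Of the activators, Npas2, which can stand in for Clock, was at 107.4 and 146.6 normalized counts at 0 h, 65.9 and 76.5 at 2 h, then 179.8 and 202.2 at 6 h. It was up-regulated between 2 h and 6 h (1.42 ± 0.29, adjusted p = 6.18e-06) and had the same order of groups as Arntl, lowest at 2 h and highest at 6 h. Rorb, a nuclear receptor that activates through the sites the REV-ERB proteins bind, passed in the same comparison (1.05 ± 0.29, adjusted p = 9.92e-04), but its 2 h libraries, at 790.9 and 414.6, spanned those of 0 h, at 735.9 and 581.5. Without replicate 2 of 2 h its change was 0.67 and was not called, as also after GC correction (0.76).

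Among genes that act on the stability of clock proteins, Usp2, a deubiquitinase, was up-regulated at 2 h (1.35 ± 0.16, adjusted p = 1.13e-14) and at 6 h (1.31 ± 0.16, adjusted p = 3.06e-14), with 293.8 and 263.8 normalized counts at 0 h, 723.0 and 695.8 at 2 h, then 638.8 and 743.2 at 6 h. Both times stood above 0 h without overlap, but the 2 h call was lost with effective lengths as offsets (0.87) and by limma on log2(TPM + 0.5) (0.67). Timeless, known in mammals mainly for its part in DNA replication, was at 162.5 and 180.3, 88.9 and 94.1, and 61.0 and 54.9 normalized counts in turn and was down-regulated at 6 h (−1.57 ± 0.28, adjusted p = 1.66e-07).

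The other 11 partners with an adjusted p ranged from −0.79 for Ciart to 0.79 for Rora at 2 h, from −0.89 for Fbxl21 to 0.80 for Gsk3b at 6 h, and from −0.97 for Arntl2 to 0.84 for Ciart between 2 h and 6 h. The kinases that mark the Period proteins were among them, with Csnk1d at 0.70 (adjusted p = 5.88e-10) and Csnk1e at 0.44 (adjusted p = 0.00378) at 2 h. Both lay above 0 h in every library in KCl, by less than the fold required.

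**Figure D5:**
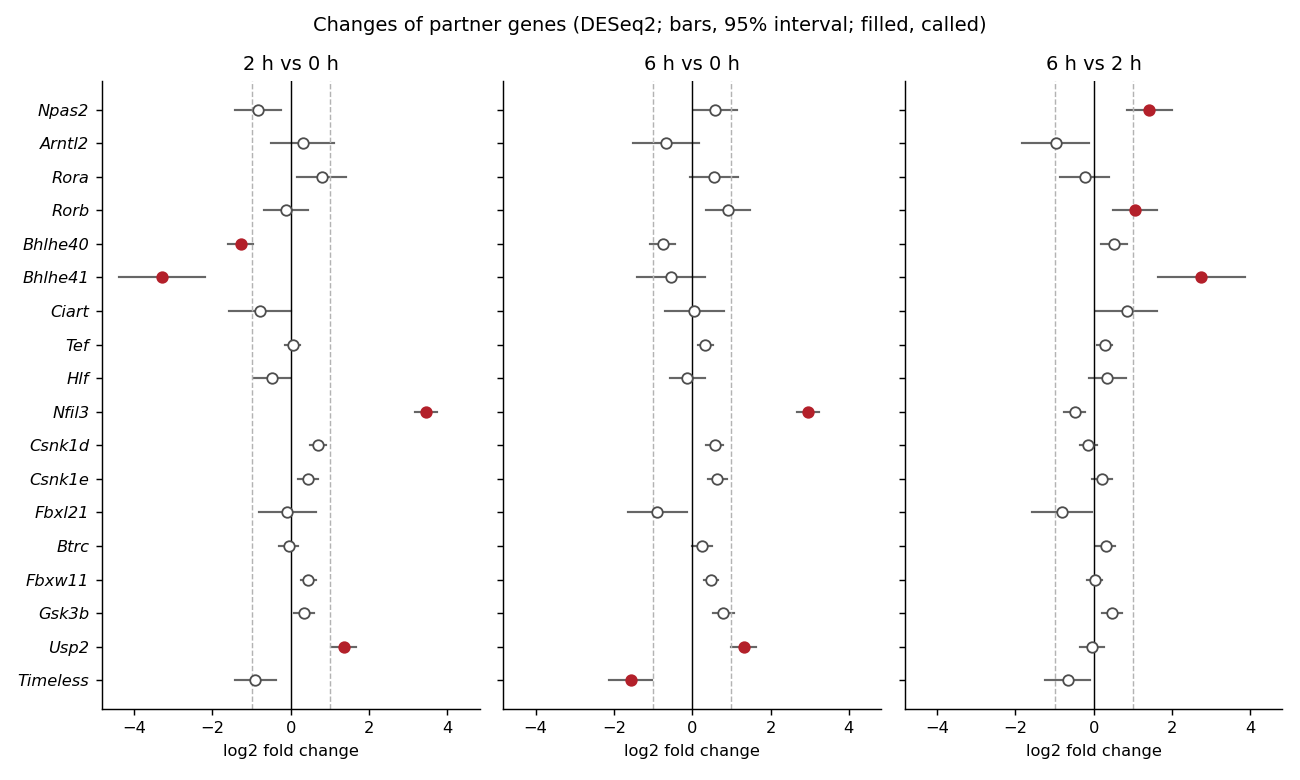
DESeq2 log2 fold changes of partner genes in the 3 comparisons, with bars for the 95% interval, filled points for called genes, and dashed lines at a 2-fold change either way. Nfil3 lies far to the right at 2 h (3.45) and at 6 h (2.96), and Bhlhe41 far to the left at 2 h (−3.29).

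To find genes with a similar course, centred log2 values over the 6 libraries were compared by Euclidean distance among 12290 genes with a mean of at least 50 normalized counts, for the 3 members that varied most. Nearest to Per1 were Sstr2 (a somatostatin receptor, distance 0.267), Adcyap1 (the neuropeptide PACAP, 0.283) and Dusp14 (a phosphatase, 0.432). Sstr2 was at 251.2 and 255.3 normalized counts at 0 h, 841.8 and 956.3 at 2 h, then 1307.6 and 1321.9 at 6 h. Like Per1, it had made most of its step by 2 h.

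Near to Per2 were Rassf3 (0.099) and Rnf43 (0.234). Rassf3 was at 148.2 and 155.9 normalized counts at 0 h, 246.7 and 234.7 at 2 h, then 733.0 and 724.9 at 6 h, with log2 fold changes of 0.66 and 2.26 against 0 h beside 0.64 and 2.24 for Per2. Nearest to Dbp were Stat2 (a signal transducer of interferon, 0.271), Xpc (a DNA repair factor, 0.347) and Tldc1 (0.371). Stat2 was at 615.2 and 643.0 normalized counts at 0 h, 265.6 and 321.5 at 2 h, then 181.9 and 197.9 at 6 h. These genes were selected for their likeness, so their values are a description over 6 libraries.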

How the data were processed

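Gene-level RSEM output of 6 poly(A) RNA-seq libraries was used. Per the labels and the study's methods, reads were trimmed and assigned with RSEM 1.3.0 and Bowtie2 2.2.9 (mm10). The library kit was strand-specific, and RSEM's strand setting and annotation release are not given in the sources used here. The authors deposited expected counts, TPM (scaled to effective length and library) and effective lengths. Expected counts were rounded, and 22587 genes with a count in any library entered DESeq2 1.42.0 (R 4.3.3; median-of-ratios size factors, Wald test, unshrunken fold changes, Benjamini-Hochberg after independent filtering). The study's methods give DESeq2 on raw counts and the thresholds, and the other settings were chosen here. log2 effective length was tested with limma 3.58.1 (trend; mean expected count at least 100; absolute log2 ratio at least 0.2). TPM was otherwise used for levels, and FPKM was not used. Alternatives included edgeR 4.0.16, other scalings, GC correction, limma on log2(TPM + 0.5), and leaving out each library. The count test was tested on simulated data. Positions came from GENCODE M21 (GRCm38).

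Named were the 10 members, partners called in any comparison with the range of the others, Fos, and the 3 nearest genes to each of the 3 most variable members. The members and lists were chosen with earlier results of these data known. Sphk2 and Thra were named for overlap with members, and Csnk1d and Csnk1e after their values were seen. Some genes that this rule names, counted in the list where they belong to it, are not reported here. The study calls the 2 libraries of a group biological replicates, with no source given for each, so p-values measure the spread between these libraries.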

Additional observations from a re-analysis of the deposited data

Results flagged for a closer look

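For 2 members the change from 0 h differed between the time points with an estimate above 2-fold, as for 18.1% of all genes. The test of that difference itself (DESeq2, 6 h against 2 h) was against no change. In a test against a 2-fold change, Per2 passed and Arntl did not. At an adjusted p of 0.05 or less in the test against no change, whatever the fold, 8 of the 10 members differed, against 45.3% of genes. For Per2 the change at 6 h exceeded that at 2 h by 1.60 on the log2 scale (adjusted p = 3.14e-26, higher in both 6 h libraries than in both 2 h libraries). For Arntl the difference was 1.21 (adjusted p = 2.23e-18, likewise without overlap), with values below 0 h at 2 h and above 0 h at 6 h. Both comparisons share the 0 h libraries.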

How the results depend on the processing

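Of 540 alternative values for the 10 clock genes, 502 kept the direction and the side of the threshold, 20 lost a call, 8 gained one and 10 turned sign. Of 432 for the called partners, the numbers were 394, 19, 7 and 12. A test against a 2-fold change left 1, 3 and 1 clock genes and 2, 1 and 0 partners at 2 h against 0 h, 6 h against 0 h and 6 h against 2 h, and 403, 860 and 540 of all genes (otherwise 1609, 3333 and 2970); lost were Dbp at 2 h, Clock, Cry2 and Dbp at 6 h, and Arntl between 2 h and 6 h. With effective lengths as offsets, 1 clock gene was called at 2 h and 5 partners at 6 h against 0 h. On leaving out 1 library at a time, called clock genes numbered 1 to 1, 5 to 6 and 2 to 4 in the same order, partners 4 to 5, 3 to 5 and 3 to 4, and all genes 1143 to 1588, 2551 to 3162 and 2365 to 3178. The 4 came without replicate 1 of 2 h (Clock and Nr1d2 gained), and the 5 partners at 6 h without replicate 1 of 0 h.

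Replicate numbers were not taken as pairs, since deviations of same-numbered libraries correlated at 0.281, −0.00226 and 0.152. With the replicate block, 1 clock gene was called at 2 h against 0 h (Dbp lost, adjusted p = 0.105), 6 at 6 h and 3 between 2 h and 6 h (Clock gained). Partners stayed at 4, 3 and 4, and all genes called numbered 1515, 3169 and 2866. With GC correction and the block together, 1 clock gene was called at 2 h and 3 between 2 h and 6 h. In the latter, Cry2 was gained (1.01, as with GC correction alone) and Clock was not. All genes called then numbered 1508, 3052 and 2663.

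Signs turned at 2 h against 0 h for Cry2 (−0.0075 with library totals; −0.0230, −0.0233 and −0.0230 by limma on TPM with a pseudocount of 0.5, of 0.1, and unfiltered), for Nr1d1 (0.54 with length offsets; 0.34, 0.36 and 0.34 by the same limma fits), and for Rorb (0.0137 with GC correction, 0.0053 with the block added, 0.10 with length offsets). Leaving out 1 library gave −0.29 to 0.78 for Clock and −0.33 to 0.61 for Nr1d2 at 2 h, both turned without replicate 1 of 2 h, and −0.68 to 0.25 for Rorb, turned without replicate 1 of 0 h (0.0591) or replicate 2 of 2 h. Between 2 h and 6 h, Usp2 turned to 0.0707 with GC correction, 0.0762 with the block added, 0.53 with length offsets, 0.51, 0.52 and 0.51 by limma, and ranged from −0.15 to 0.0649 on leaving out 1 library, the latter without replicate 1 of 6 h. None of these turned values had passed the test in the original fit, and the cause was not tested beyond what each alternative changes by construction. Dbp had the lowest counts of the members, at 15.0 to 60.4 normalized counts.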
